A study of Solanum lycopersicum with 8 samples.

Results

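Non-specific lipid transfer proteins are small secreted proteins that carry lipids in a hydrophobic cavity held together by conserved cysteine bridges. Plants make many of them, often from tandem gene copies, and members of the family are known from epidermal cells, where they are linked to the supply of lipids to the cuticle, from anthers and pollen, and from responses to pathogens and water stress. The genes described here are 4 tandem copies with consecutive or nearly consecutive IDs on tomato chromosome 10, Solyc10g075070.3, Solyc10g075090.3, Solyc10g075100.2 and Solyc10g075110.2, chosen by ID out of 34109 genes in the expression table. Their levels were compared between 2 double mutants with overproliferating inflorescence meristems.

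The 2 genotypes were *plt3 plt7*, which carries CRISPR–Cas9 mutations in both PLETHORA paralogues, and *ej2 j2*, which carries mutations in both SEPALLATA paralogues. Inflorescence meristems were dissected from plants 8 weeks old, and 4 libraries of each genotype were sequenced after removal of ribosomal RNA, with no wild-type library used here. The study's figure of the levels of these paralogues gives n = 4 for *ej2 j2* but n = 2 for *plt3 plt7*. All 4 libraries of each were used here. The *ej2 j2* line was an existing stock, and the labels do not say which of its alleles was sampled. Levels are in TPM, a share of all transcripts in a library scaled so that every library has the same sum after reads are divided by transcript length, so levels of different genes can be compared but the read depth is unknown.

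In the *plt3 plt7* libraries *EJ2* (Solyc03g114840.3) was listed at 0 and *J2* (Solyc12g038510.2, an ID set from general knowledge) lay between 0.236 and 0.565 TPM, against 3.67 to 15.2 TPM and 1.64 to 22.8 TPM in *ej2 j2*. *PLT3* (Solyc05g051380.4) and *PLT7* (Solyc11g010710.2) had reads in all 8 libraries, so the mutated *PLT* genes do not check the *plt3 plt7* label. *EJ2* and *J2* had reads in every *ej2 j2* library, so they do not check the *ej2 j2* label either. Replicate 2 of *ej2 j2* stood apart from the other libraries, at -150 on the second principal component, with the remaining 7 between -7.72 and 73.7, and its 10 highest genes held 10.7% of all TPM. In the other libraries the 10 highest genes held 4.14% to 9.16%. Of 8 IDs listed as meristem genes, all were above 0 in at least 1 library. Their summed level was 265 to 901 TPM in *plt3 plt7* and 366 to 1247 TPM in *ej2 j2*.

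Of the 4 lipid transfer protein genes, a pair was detected in every library of both mutants and a pair in none. Solyc10g075070.3 and Solyc10g075110.2 were above 0 in all 8 libraries, at levels mostly below the middle of the detected genes. Solyc10g075090.3 and Solyc10g075100.2 were listed at 0 in all 4 *plt3 plt7* and all 4 *ej2 j2* libraries. A level of 0 throughout was common in the table, for 8538 of 34109 genes (25.0%) and for 773 of the 2520 genes with chromosome 10 IDs (30.7%). The sources used here do not say how reads that fit several tandem copies were assigned, so the split of reads among the 4 genes, zeros included, is uncertain.

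**Figure D1:**
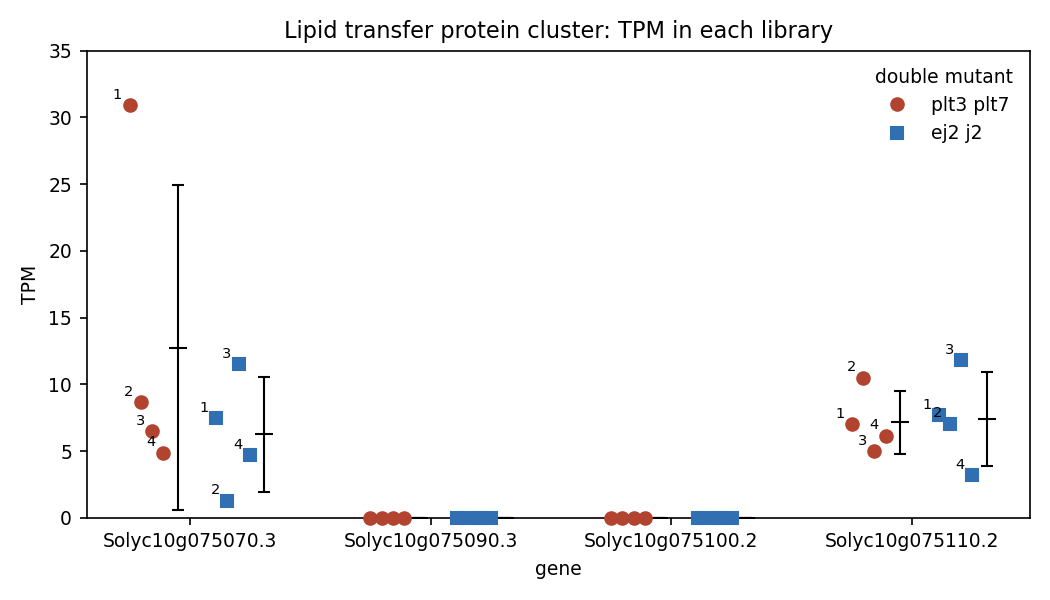
TPM (vertical axis) of the 4 lipid transfer protein genes in each *plt3 plt7* library (red circles) and each *ej2 j2* library (blue squares), numbered by replicate, with the mean and SD of 4 libraries in black. Solyc10g075070.3 ranges from 1.29 to 30.9 TPM and Solyc10g075110.2 from 3.21 to 11.8 TPM, and the other copies are listed at 0 in all 8 libraries.

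Solyc10g075070.3 was the copy that varied most. Replicates 1 to 4 of *plt3 plt7* held 30.9, 8.69, 6.52 and 4.89 TPM of it, against 7.49, 1.29, 11.5 and 4.72 TPM in *ej2 j2* replicates 1 to 4. One library was high, *plt3 plt7* replicate 1, and one was low, *ej2 j2* replicate 2. The other 6 lay between 4.72 and 11.5 TPM, with both genotypes mixed. The means were 12.8 ± 12.2 TPM in *plt3 plt7* and 6.25 ± 4.31 TPM in *ej2 j2* (SD, n = 4 each). The highest library exceeded the lowest 23.9 times over all 8.

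Solyc10g075110.2 was the steadier copy. Replicates 1 to 4 of *plt3 plt7* held 7.02, 10.5, 5.01 and 6.16 TPM of it, against 7.69, 7.05, 11.8 and 3.21 TPM in *ej2 j2* replicates 1 to 4. No library stood apart, and the range of *plt3 plt7* lay inside that of *ej2 j2*. The means were 7.18 ± 2.39 TPM and 7.45 ± 3.53 TPM (*plt3 plt7* and *ej2 j2*, SD, n = 4 each), and the highest of the 8 libraries exceeded the lowest 3.69 times. Its residual SD on the log2(TPM + 1) scale was 0.55, and 2.74% of the 4419 genes with a mean of 5 to 15 TPM had a lower one. The median of those genes was 1.08, and the residual SD of Solyc10g075070.3 was 1.07, with 48.6% of them lower.

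Ranked by TPM among all 34109 genes, with rank 1 the highest, Solyc10g075070.3 stood at 6330, 11815, 13089 and 13969 in *plt3 plt7* replicates 1 to 4. In *ej2 j2* replicates 1 to 4 its ranks were 12606, 17238, 10684 and 14350. It therefore exceeded 35.2% to 70.5% of the genes above 0 in each *plt3 plt7* library and 19.4% to 52.3% in each *ej2 j2* library. Solyc10g075110.2 kept to a narrower band of ranks, 12708, 11033, 14133 and 13136 in *plt3 plt7* and 12501, 12020, 10561 and 15654 in *ej2 j2*. It exceeded 36.6% to 49.1% of the genes above 0 in *plt3 plt7* libraries and 29.8% to 52.8% in *ej2 j2* libraries. Together the 4 genes summed to 11.0 to 38.0 TPM in *plt3 plt7* and 7.93 to 23.3 TPM in *ej2 j2*, at most 0.0038% of a library.

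Neither detected copy differed between the genotypes by the test used. Each difference is the mean of *plt3 plt7* minus the mean of *ej2 j2* in log2(TPM + 1), where changes of low genes come out too small. The limma fit covered the 19544 genes that averaged 1 TPM or more, and a gene was called when its adjusted p was under 0.05. This called 1.84% of the genes tested (0.875% in the direction of *plt3 plt7*, 0.962% in that of *ej2 j2*) but 0 of the 2 tested members. At an unadjusted p under 0.05 the limma count was also 0 of these members, against 13.8% of all genes tested. The 2 members listed at 0 could not be tested.

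The log2 difference of Solyc10g075070.3 was 0.83 (standard error 0.83, 95% interval -0.81 to 2.46, adjusted p = 0.744 by limma). An exact permutation of the genotype labels, two-sided, gave p = 0.371, where 0.0286 is the lowest this design can reach. The interval runs from 0.571 times to 5.50 times on this scale, so it includes both no difference and a difference of several fold towards *plt3 plt7*. The estimate rested on single libraries. Without *plt3 plt7* replicate 1 it was 0.30 and the mean of the remaining *plt3 plt7* libraries was 6.70 TPM. Without *ej2 j2* replicate 2 it was 0.35 and the mean of the remaining *ej2 j2* libraries was 7.90 TPM. In both cases it stayed above 0 and did not pass (adjusted p = 0.949 and 0.918, limma).

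The log2 difference of Solyc10g075110.2 was 0.02 (standard error 0.82, 95% interval -1.60 to 1.64, adjusted p = 0.995 by limma), with p = 1.0 from the exact permutation. Of the genes tested, 98.7% had a larger difference in either direction, against 43.0% for Solyc10g075070.3. The interval spans 0.330 times to 3.11 times. limma draws the standard error almost wholly from the spread of genes at similar levels, which exceeded the spread of this gene itself. The sign of so small a difference had no fixed direction, since it was -0.05 after rescaling by the median of ratios and -0.01 after quantile normalization.

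**Figure D2:**
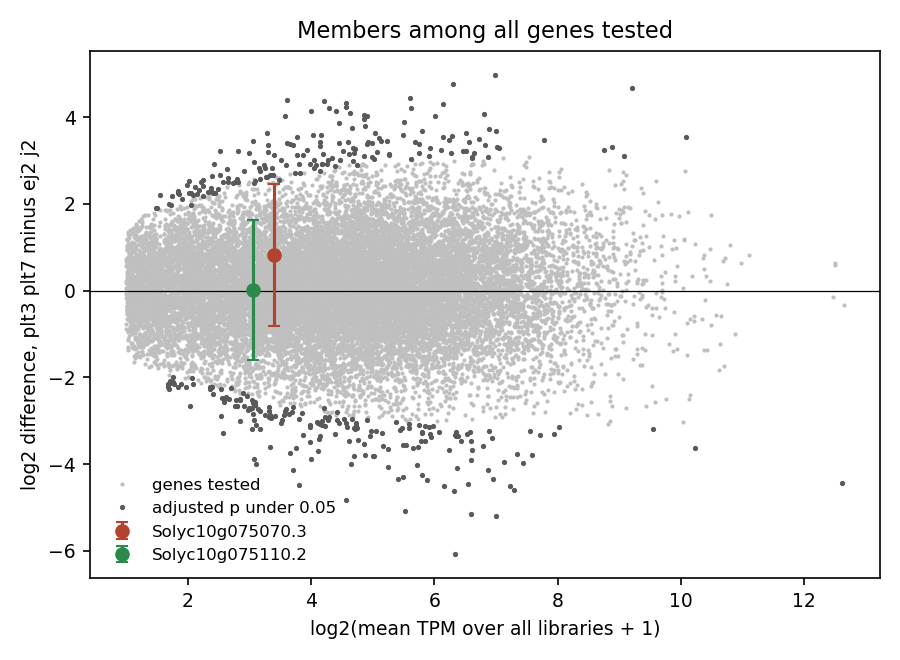
Log2 difference between *plt3 plt7* and *ej2 j2* (vertical axis) against log2 of the mean TPM over all libraries plus 1 (horizontal axis) for the 19544 genes tested, with genes called in dark grey and the detected lipid transfer protein genes in colour with 95% intervals. Both intervals include 0 and both genes lie within the grey cloud of genes that were not called.

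Whether the tandem copies move together could be examined for 1 of the 6 possible pairs, since the others include a gene listed at 0. The levels of Solyc10g075070.3 and Solyc10g075110.2 were within 1.47 times of each other in 6 of the 8 libraries and far apart in 2. The TPM of the first divided by that of the second was 4.41, 0.824, 1.30 and 0.794 in *plt3 plt7* replicates 1 to 4, against 0.974, 0.183, 0.970 and 1.47 in *ej2 j2* replicates 1 to 4. The 2 libraries that depart are *plt3 plt7* replicate 1, where the first copy was higher, and *ej2 j2* replicate 2, where the second was 5.45 times the first. Both departures came from Solyc10g075070.3, while Solyc10g075110.2 stood at 7.02 and 7.05 TPM in these libraries.

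Over all 8 libraries the correlation of log2(TPM + 1) between the copies was weak (Pearson r = 0.297, exact permutation p = 0.486; Spearman rho = 0.524, exact permutation p = 0.197). With 1 pair computed, the p-values need no adjustment. After the mean of each genotype was subtracted, r was 0.317 and rho 0.286 (exact permutation within genotypes, p = 0.5 and 0.549). Without the 2 libraries farthest from the median of Solyc10g075070.3, which are the same 2 as above, r was 0.885 and rho 0.943 over the remaining 6. Those libraries were left out for their own values of the first gene, so the higher correlation is a description and carries no test. Each single library left out in turn gave r between 0.208 and 0.428.

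The balance between the copies did not differ detectably between the genotypes. The level of Solyc10g075070.3 minus that of Solyc10g075110.2, on log2(TPM + 1), averaged 0.45 ± 1.07 in *plt3 plt7* and -0.36 ± 0.99 in *ej2 j2* (SD, n = 4 each), a difference of 0.81 (exact two-sided permutation test, p = 0.457). This comparison was chosen after the values were seen. The first copy was the higher one in 2 of 4 *plt3 plt7* and 1 of 4 *ej2 j2* libraries, so the order of the detected copies is not fixed beyond their spread.

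**Figure D3:**
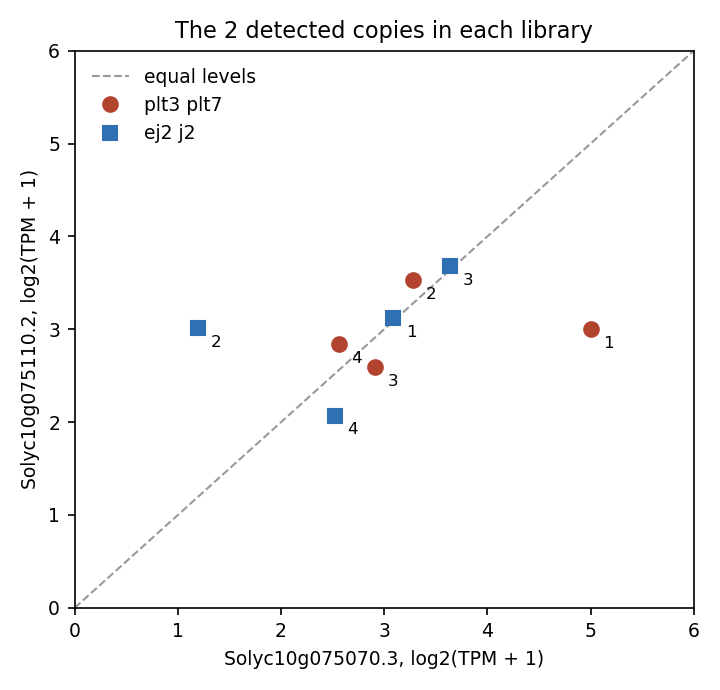
log2(TPM + 1) of Solyc10g075110.2 (vertical axis) against that of Solyc10g075070.3 (horizontal axis) in the 4 *plt3 plt7* (red circles) and 4 *ej2 j2* (blue squares) libraries, numbered by replicate, with the line of equal levels. The other 6 points lie near the line, and *plt3 plt7* replicate 1 and *ej2 j2* replicate 2 lie to its right and left, at 7.02 and 7.05 TPM of Solyc10g075110.2.

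Genes with neighbouring IDs were examined next. Of the 34 IDs in the table from Solyc10g074900 to Solyc10g075300, 30 are not members, and 8 of these (26.7%) were listed at 0 in every library. Among 13 neighbours tested, 1 was lower in *plt3 plt7* and none was higher, against 0.962% and 0.875% of all genes tested. The differences ran from -3.10 to 2.05 with a median of 0.33, against 0.05 over all genes tested. The neighbour called was Solyc10g075050.2, which the tables used here do not name. Replicates 1 to 4 of *plt3 plt7* held 0, 0.290, 0.154 and 0 TPM of it, against 34.2, 0.197, 15.0 and 11.0 TPM in *ej2 j2* replicates 1 to 4. It was near 0 in all *plt3 plt7* libraries and above 10 TPM in all *ej2 j2* libraries but replicate 2, which overlapped with *plt3 plt7*. Its log2 difference was -3.10 (standard error 0.67) with an adjusted p of 0.00212 by limma and p = 0.0571 by exact permutation, and it passed in limma with each library left out in turn (-4.10 without *ej2 j2* replicate 2). It did not pass without a filter on low values (adjusted p = 0.184) or without an intensity trend (adjusted p = 0.0824, limma), and its range over all alternatives was 1.54e-04 to 0.184.

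Libraries did not overlap between the genotypes for 3 more neighbours, named after their values were seen, 1 higher and 2 lower in *plt3 plt7*, none of which passed limma. Over all genes tested this occurred for 6.87%, 3.87% higher and 3.00% lower. Solyc10g075040.3 was at 102 to 277 TPM in *plt3 plt7* and 19.5 to 72.8 TPM in *ej2 j2* (log2 difference 2.05, adjusted p = 0.266, limma). Solyc10g075020.3 was at 2.31 to 8.78 TPM and 14.8 to 34.0 TPM in the same order (log2 difference -2.07, adjusted p = 0.213, limma). Solyc10g075160.1 was at 15.1 to 23.6 TPM in *plt3 plt7* and 28.2 to 188 TPM in *ej2 j2* (log2 difference -1.74, adjusted p = 0.374, limma). The IDs number genes along the chromosome, so these lie near the copies, but their distances were not used here.

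Between the first and the last copy by ID lie 3 other genes. Solyc10g075080.1 was the only one tested, at 0, 11.2, 5.12 and 0.648 TPM in *plt3 plt7* replicates 1 to 4, against 1.29, 0.399, 0.200 and 3.65 TPM in *ej2 j2* replicates 1 to 4. The genotypes overlapped (log2 difference 0.69, adjusted p = 0.706, limma). It was listed at 0 in *plt3 plt7* replicate 1, the library in which Solyc10g075070.3 was highest. The other two were at or near 0 in every library. By ID, the outer copies of the 4 were thus the ones with reads, and the inner ones were at 0.

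**Figure D4:**
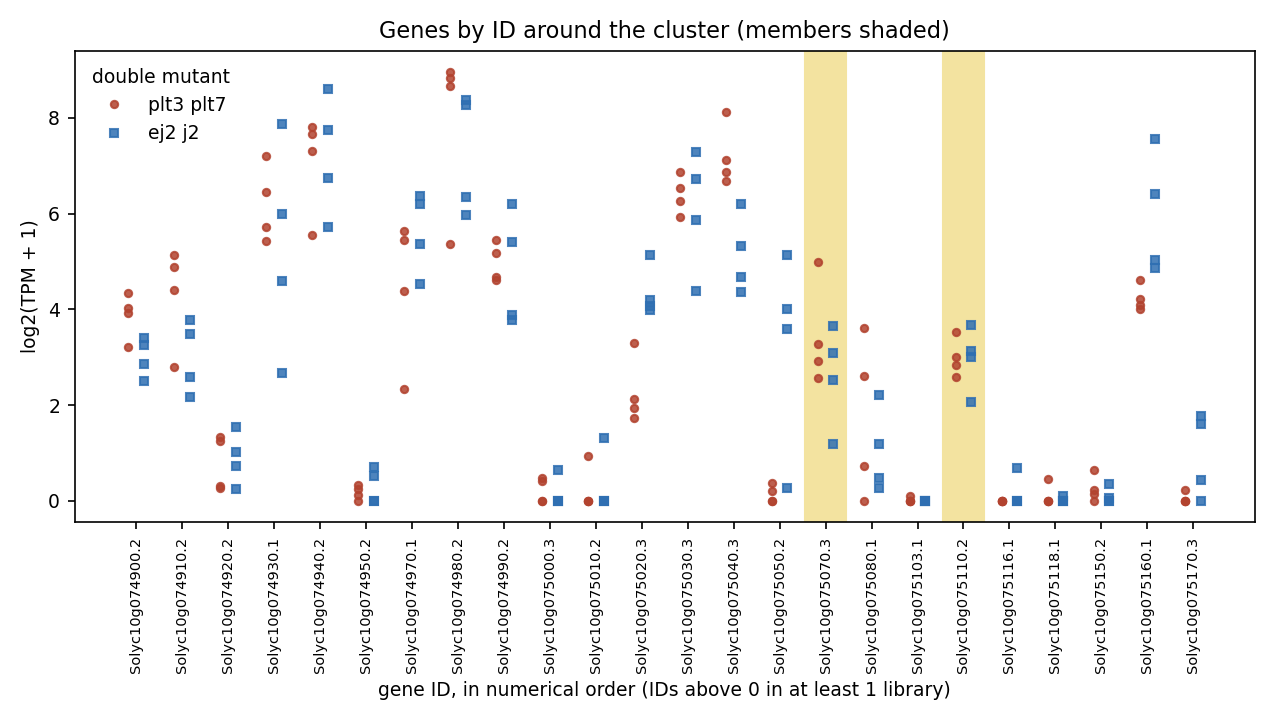
log2(TPM + 1) (vertical axis) of each gene with an ID from Solyc10g074900 to Solyc10g075300 that was above 0 in at least 1 library (horizontal axis, in order of ID), with 1 point for each *plt3 plt7* (red circles) and *ej2 j2* (blue squares) library and the detected lipid transfer protein genes shaded. The genotypes overlap for both shaded genes, while Solyc10g075020.3, Solyc10g075040.3 and Solyc10g075160.1 separate and Solyc10g075050.2 separates in all but *ej2 j2* replicate 2.

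A cluster of such genes is also annotated by RefSeq, whose gene list for assembly SLM_r2.1 places 4 consecutive protein-coding genes with lipid transfer protein names on chromosome 10, a locus with the synonym ltp, *LE16* (with the allergen synonym Sola l 3), *ltpg1* and *TSW12*. The list matched 0 of the 4 IDs, because it holds no ID of this kind, so none of these names can be given to a member. Sequences of the members were not used here.

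The lipid transfer protein IDs examined elsewhere in the genome were mostly at or near 0 in these meristems. The whole family was not searched. The IDs examined numbered 15, listed from general knowledge and not checked in any table. Of these, 8 were listed at 0 in every library, against 25.0% of all 34109 genes. A mean of 1 TPM was reached by 1 of the 15, against 19544 of all genes. That one, Solyc06g054070.3, was at 0.652 to 6.28 TPM in *plt3 plt7* and 0.714 to 5.84 TPM in *ej2 j2* (log2 difference -0.39, adjusted p = 0.882, limma). The summed level of the 15 was 2.69 to 9.05 TPM in *plt3 plt7* and 1.83 to 9.38 TPM in *ej2 j2*. The 2 detected chromosome 10 copies together exceeded these 15 IDs in every library.

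Cuticle and epidermis genes, among which members of the family are often expressed, were detected in both genotypes. All 11 IDs of this list found in the table were tested. Of these 1 was lower in *plt3 plt7* and none was higher, against 0.962% and 0.875% of all genes tested. The median difference was -0.39, against 0.05 over all genes tested, in a range of -3.46 to 0.45 with 2 of the 11 above 0. The summed level of the 11 IDs was 102 to 574 TPM in *plt3 plt7* and 156 to 705 TPM in *ej2 j2*. The gene called was Solyc11g006250.2, at 0.359 to 20.9 TPM in *plt3 plt7* and 18.1 to 183 TPM in *ej2 j2* (log2 difference -3.46, adjusted p = 0.0182, limma). It did not pass without *plt3 plt7* replicates 1 or 4 or *ej2 j2* replicates 1 or 3 (adjusted p = 0.0708, 0.162, 0.104 and 0.119, limma), in a range of 0.00499 to 0.225 over all alternatives. In *plt3 plt7* replicate 1, where Solyc10g075070.3 was highest, the cuticle list was at its lowest sum of all libraries, 102 TPM. The meristem list was also at its lowest sum there, 265 TPM. In *ej2 j2* replicate 2, where Solyc10g075070.3 was lowest, the cuticle list had the lowest sum of its genotype, 156 TPM. Single genes weigh heavily in these sums, as Solyc10g005330.3 held 482 of the 574 TPM in *plt3 plt7* replicate 2. The part of epidermal tissue in these levels was not tested, and in bulk RNA fewer cells of a type and less RNA per cell cannot be told apart.

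Of the meristem list, 1 of 8 genes tested was lower in *plt3 plt7* and none was higher, against 0.962% and 0.875% of all genes tested. The median difference of the list was -1.58, against 0.05 over all genes tested. Its genes did not all go 1 way, as the differences ran from -2.96 to 0.85 and 2 of the 8 were above 0. The gene called, Solyc02g081670.1, was at 0 throughout *plt3 plt7* and at 0.125 to 8.76 TPM in *ej2 j2* (log2 difference -2.16, adjusted p = 0.0242, limma), a difference whose size depends on the 1 TPM added. It failed without any 1 of 6 of the libraries, all but *ej2 j2* replicates 1 and 4 (adjusted p from 0.0515 to 0.0978), and its adjusted p ran from 0.00540 to 0.209 (limma) over the alternatives that kept it, since a minimum mean of 5 TPM left it out. Of the green leaf tissue IDs 11 were found, 7 were tested and none was called, against 1.84% of all genes tested. The median difference of the 7 was -0.41, in a range of -1.80 to 0.77 with 2 above 0. Their summed levels were 509 to 760 TPM in *plt3 plt7* and 206 to 960 TPM in *ej2 j2*. The lowest of these sums was that of *ej2 j2* replicate 2. The lists were assembled from general knowledge, so their names are labels, and their part in the levels of the lipid transfer protein genes was not tested.

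The genes whose levels ran most nearly parallel to the copies were sought by the Pearson correlation of log2(TPM + 1) with the mean of the 4 members over the 8 libraries. Because 2 members are constant at 0 and Solyc10g075110.2 varies little, this mean follows mainly Solyc10g075070.3. The 10 highest of 19542 genes had r from 0.922 to 0.965, and from 0.912 to 0.980 after genotype means were subtracted. They were chosen for a high r in these libraries, so both ranges are a description with no test. limma called 0 of the 10 between the genotypes, against 1.84% of all genes tested. Because they were picked for following a mean led by a gene that was not called, this count is a description too. Of the 10, 1, Solyc10g054030.2, has a chromosome 10 ID, outside the range of neighbours described above.

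The closest was Solyc01g006555.1 (r = 0.965), at 4.58, 1.78, 0.280 and 0.592 TPM in *plt3 plt7* replicates 1 to 4, against 1.91, 0.0817, 2.78 and 0.289 TPM in *ej2 j2* replicates 1 to 4. Like Solyc10g075070.3, it was highest in *plt3 plt7* replicate 1 and lowest in *ej2 j2* replicate 2. Next came Solyc03g112680.3 (r = 0.957), Solyc08g082080.3 (r = 0.936) and Solyc01g107700.4 (r = 0.930). The tables used here name none of them, and all of these correlations share the same 8 libraries.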

How the data were processed

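RNA of inflorescence meristems was measured in 8 libraries, 4 of *plt3 plt7* and 4 of *ej2 j2*. The deposited table holds TPM, which the authors computed in R from reads cleaned with Trimmomatic and mapped by STAR 2.6.1 on cDNA models of SL4.0. Whether strand was used, and how reads shared by genes were handled, is not stated in the sources read. TPM keeps no depth, so no counting error can be given. The labels number the replicates 1 to 4. Permutation p-values measure the spread of a gene between these samples. The limma p-values rest mostly on the spread between samples of other genes at similar levels.

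Values were tested as log2(TPM + 1) for genes averaging 1 TPM or more, with limma 3.58.1 under R 4.3.3 (trend, two-sided, Benjamini-Hochberg over all genes tested, threshold 0.05), with 6 residual and 365 prior degrees of freedom. Exact permutation tests, ranks, correlations and figures were made in Python 3.11.15. The estimates of the fit were checked on simulated data with known differences. Same-numbered libraries were checked for pairing and showed none. Named genes were the 4 members, neighbours by ID that were called, the 10 genes most like the members' mean, and from each list the called genes and otherwise at most 4. Other neighbours were named after their values were seen. Members and lists were chosen with earlier results of these data known, and list IDs came from general knowledge. Alternatives are given at the end.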

Additional observations from a re-analysis of the deposited data

Results flagged for a closer look

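The level of Solyc10g075070.3 in *plt3 plt7* replicate 1 was 30.9 TPM, apart from the remaining replicates of this mutant at 8.69, 6.52 and 4.89 TPM. The gap to the next library was 0.854 of the whole range of the group, above Dixon's 95% critical value for 4 samples. In log2(TPM + 1), the scale of the tests, the gap was 0.706 of the range and did not exceed that value. It was 1 of 14 groups of 4 examined, of which chance sets apart about 5%. In the same library Solyc10g075110.2 was at 7.02 TPM.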

How the results depend on the processing

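The log2 difference of Solyc10g075070.3 stayed above 0 and did not pass under 8 of 8 other settings and with each of 8 libraries left out (0.30 to 1.17, adjusted p 0.665 to 0.949, limma). That of Solyc10g075110.2 passed in none (adjusted p 0.947 to 0.999, limma), and its sign turned after rescaling by the median of ratios (-0.055), after quantile normalization (-0.0090) and without *plt3 plt7* replicate 2 or *ej2 j2* replicate 4, in a range of -0.28 to 0.26 over the libraries left out. The correlation between the detected copies passed under none of 4 other settings and with none of 8 single libraries left out. The higher correlation without 2 libraries, given above as a description, is not among these. The number of genes called, 359, was 11 without a filter on low values, 229 with a minimum mean of 5 TPM, 131 without an intensity trend and 138 to 446 with a library left out. With a replicate block it was 303, and no member changed its call. Same-numbered libraries correlated between -0.033 and 0.013 in their deviations, so the numbers do not pair them. A level of 0 has no interval because the depth is unknown.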
